A study of Apostichopus japonicus with 12 samples.

Results

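The genes described here encode the enzymes that feed pyruvate into the tricarboxylic acid (TCA) cycle and run the cycle itself, in intestines of the sea cucumber Apostichopus japonicus. They are 36 of 26461 gene models, chosen because the name of their best Swiss-Prot match contains that of a cycle enzyme, of a pyruvate dehydrogenase component or regulator, of a dihydrolipoyl protein or of the NADP-dependent malic enzyme. Gene symbols are those of the match, mostly in a vertebrate. RNA was sequenced from 12 libraries, 3 in each of 4 groups, each after 6 h of treatment. Controls were kept at 18 °C. Dissolved oxygen was 7 mg/L in the high temperature group, which was warmed to 26 °C. Nitrogen injection brought it down to 3 mg/L in the low oxygen group, which stayed at 18 °C, and the combined group had both the 26 °C and the 3 mg/L. For the controls the series text names 3 mg/L as well, which would equal low oxygen. Their true oxygen level is therefore uncertain, and the groups are used as labelled. No genotype or strain is given, and whether tanks were shared within a group is not stated, so the tests measure the spread between these samples.

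Pyruvate from glycolysis enters mitochondria and is converted to acetyl-CoA by the pyruvate dehydrogenase complex, which kinases switch off and phosphatases switch on again. The TCA cycle joins acetyl-CoA to oxaloacetate as citrate and oxidises it step by step, passing electrons to NADH and, through succinate dehydrogenase, directly to the respiratory chain. In vertebrates, hypoxia raises transcripts of some pyruvate dehydrogenase kinases, which diverts pyruvate to lactate. Cytosolic forms of isocitrate dehydrogenase, malate dehydrogenase and malic enzyme serve other ends, among them the supply of NADPH for lipid synthesis.

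The libraries held 8.147 to 10.855 (in units of 1e6) fragments. Values are FPKM, fragments per kilobase of model and per unit of depth after the authors' scaling, so levels of different genes can be set side by side. Combined 1 and combined 3 stood apart: relative to the total, the effective library size was 0.529 and 0.526 in them and 0.935 to 1.58 elsewhere. Markers of the digestive epithelium were present, with villin models summing to 72.9 to 176 FPKM per library, while the whole digestive list summed to 538 to 2469 FPKM in the controls, 259 to 611 at high temperature, 385 to 686 under low oxygen, then 279 to 1165 in the combined group. Markers of ciliated cells summed to 124 to 235 FPKM in the controls, 291 to 458 at high temperature, 220 to 329 under low oxygen, then 239 to 1498 in the combined group. Muscle markers summed to 118 to 239 FPKM in the controls, 169 to 224 at high temperature and 162 to 235 under low oxygen. All combined libraries lay above these, at 261 to 380 FPKM. Coelomocyte markers summed to 519 to 611 FPKM in the controls and 360 to 728 at high temperature. The low oxygen libraries (635 to 934 FPKM) and the combined libraries (837 to 1224 FPKM) lay above every control. All marker sums are on the authors' scale and are not given at equal totals per library. The part of these markers in the levels given next was not tested.

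Taken over all groups, the enzymes were transcribed at moderate levels. The median of the 36 models was 11.6 FPKM (mean over the libraries), against 4.12 FPKM over all genes tested. Of the 36 models, 19 averaged at least 10 FPKM and 10 averaged under 3 FPKM. The models lie on 18 chromosomes and have 1 to 22 exons (median 10.5), in coordinates of the authors' table, whose build is not named in the sources used here. A filter of at least 1 FPKM in at least 3 libraries kept 35 models for testing. The model left out, evm_TU_Chr9_1018, a second match to the PDH phosphatase regulatory subunit PDPR, reached 1.09 FPKM in control 3 and was lower elsewhere. It lies within the span of the other PDPR model on the same strand.

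**Figure D1:**
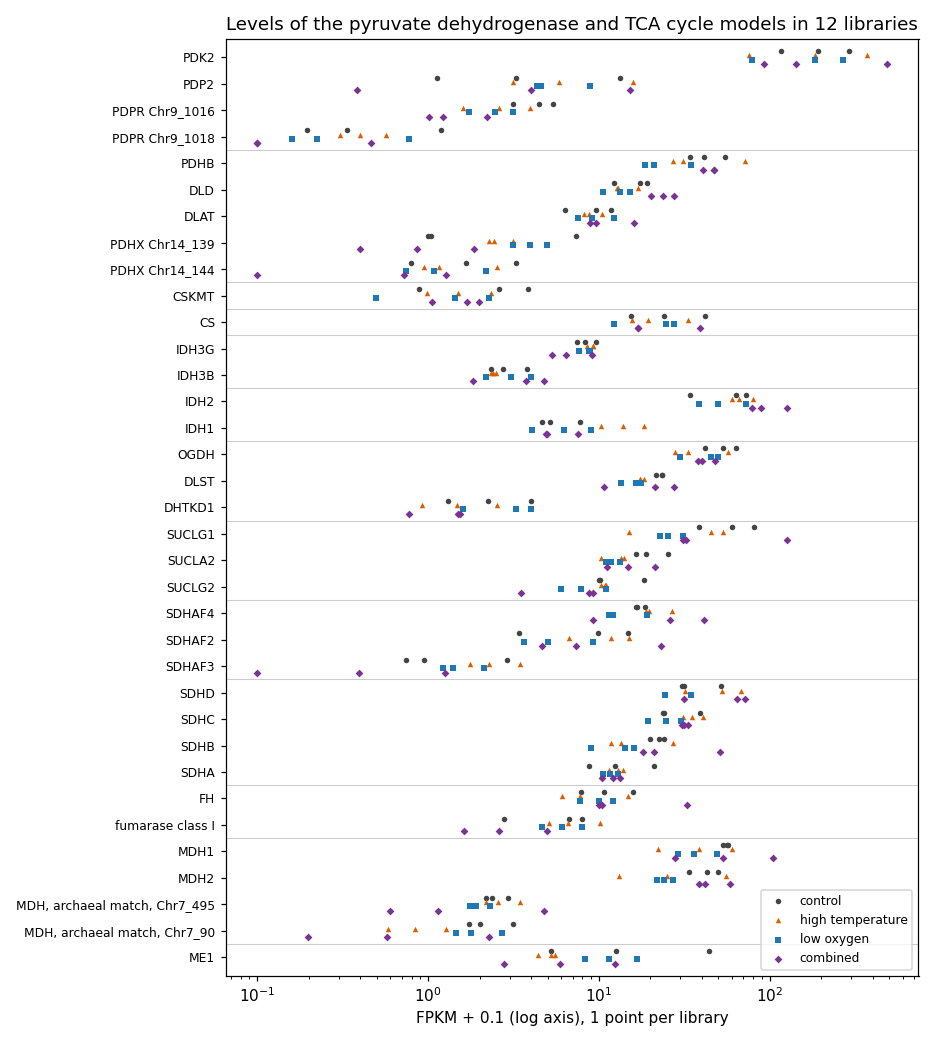
FPKM plus 0.1 (horizontal log axis) of 35 of the 36 models in each library, 1 point per library, with marker and colour giving the group and lines separating the enzyme steps. The PDK2 model stands to the right of every other model by its mean (206 FPKM), and points of the 4 groups overlap in most rows.

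No model passed the test in any of 6 comparisons. They set each treatment against control and the combined group against each single treatment, and took the interaction of temperature and oxygen. The test was limma on log2(FPKM + 1) over all 12 libraries, with Benjamini-Hochberg adjustment over 15615 genes, called at an adjusted p under 0.05. It called 0 of 35 models as higher and 0 as lower each time, and limma voom on recovered fragments also called 0. For a single gene an exact two-sided permutation test of 3 against 3 cannot go below p = 0.1. The background was sparse too. Over all genes, 0.0448% were called higher and 0.0256% lower at high temperature, 0% and 0.0064% under low oxygen, and 0.596% and 0.192% in the combined group, each against control. For the combined group the calls were 0.205% and 0.0128% against high temperature and 0.397% and 0.0256% against low oxygen, and for the interaction they were 0.0512% and 0%. At an unadjusted p under 0.05 some models stood out, in shares to be read against all genes. High temperature against control had 1 higher and 0 lower (background 2.38% and 4.2%), low oxygen 0 and 0 (2.24% and 4.06%), and the combined group 0 and 1 (6.65% and 7.1%). The combined group had 1 higher and 3 lower against high temperature (3.87% and 2.78%) and 3 higher and 1 lower against low oxygen (6.3% and 6.06%). The interaction had 2 higher and 2 lower (4.12% and 2.44%).

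The intervals say how much room that leaves. With a median standard error of 0.43 on the log2 scale, the 95% interval lay wholly within a 2-fold change either way for 4 of 35 models at high temperature, 8 under low oxygen and 6 in the combined group, each against control. A rise of 2-fold was outside the interval for 23, 28 and 22 models in these comparisons, and a fall of 2-fold for 13, 12 and 14. Changes of 4-fold either way were outside it for 32, 33 and 33 models. The values that follow are therefore described by their size, interval and overlap.

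Pyruvate dehydrogenase kinase 2 (PDK2, evm_TU_Chr10_422, chromosome 10, 14708257 to 14729437, 11 exons), which phosphorylates and inactivates the complex, was the most abundant model. It measured 292, 191 and 116 FPKM in control 1 to 3, 369.7, 183 and 75.1 at high temperature, 266, 183 and 78.2 under low oxygen, and 143, 92.0 and 485 in the combined group. Animals of the same group thus differed by several-fold while the groups overlapped fully. PDK2 fell from library 1 to library 3 in the controls, at high temperature and under low oxygen, but not in the combined group. That order was noticed after the values were seen and was not tested. Group means were 199.7 ± 88.2, 209 ± 149, 176 ± 94.2 and 240.0 ± 214 FPKM (SD, n = 3 each). At low oxygen the difference from control was log2 -0.25 (95% interval -1.82 to 1.31, adjusted p = 0.958). PDK2 alone took 12.8% to 37.4% of the summed FPKM of the 36 models.

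The phosphatase that reverses this step was rarer by its mean. The pyruvate dehydrogenase phosphatase 2 model (PDP2, evm_TU_Chr9_572, a single exon) measured 1.03, 3.15 and 13.1 FPKM in the controls and 5.70, 3.02 and 15.7 at high temperature. It measured 8.79, 4.49 and 4.22 FPKM under low oxygen and 3.89, 15.1 and 0.284 in the combined group. The highest PDK2 library, combined 3, was the lowest for PDP2, and the lowest PDK2 library, high temperature 3, was the highest for PDP2. This contrast of extremes was noticed after the values were seen and was not tested. PDPR (evm_TU_Chr9_1016), the regulatory subunit of the phosphatase, measured 3.03, 4.37 and 5.31 FPKM in the controls, 3.84, 2.51 and 1.51 at high temperature, 2.38, 3.04 and 1.65 under low oxygen, and 1.12, 0.907 and 2.10 in the combined group. All 3 combined libraries lay below all 3 controls (log2 -1.15, SE 0.38, adjusted p = 0.223), the clearest difference of any model from control in that group.

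The complex itself was represented by 5 models. The E1 beta subunit (PDHB, evm_TU_Chr5_535) measured 41.2, 33.9 and 54.5 FPKM in the controls and 30.8, 71.1 and 26.9 at high temperature. Its low oxygen libraries measured 18.6, 20.8 and 34.6 FPKM and its combined libraries 40.6, 47.2 and 46.9. Low oxygen was the lowest group for PDHB, with 1 library reaching into the control range (log2 -0.81, SE 0.42, adjusted p = 0.792), and all 3 combined libraries lay above it (combined minus low oxygen log2 0.89, SE 0.42, adjusted p = 0.408). The E1 alpha partner has a match named "Probable pyruvate dehydrogenase", whose lower-case spelling the rule does not take in. It measured 33.1 to 43.3 FPKM in the controls and 25.4 to 30.1 under low oxygen, without overlap (log2 -0.42, SE 0.37, adjusted p = 0.861).

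Dihydrolipoyl dehydrogenase (DLD, evm_TU_Chr5_136), the E3 subunit shared with the oxoglutarate complex, measured 12.1, 17.2 and 19.0 FPKM in the controls and 12.8, 16.9 and 12.6 at high temperature. It measured 15.1, 10.5 and 13.3 FPKM under low oxygen and 23.6, 20.2 and 27.3 in the combined group. The combined libraries lay above every other library. The difference was log2 0.54 against control (SE 0.33, adjusted p = 0.489), 0.71 against high temperature (SE 0.33, adjusted p = 0.748) and 0.82 against low oxygen (SE 0.33, adjusted p = 0.366). The E2 acetyltransferase DLAT ranged from 6.22 to 16.0 FPKM over the libraries. Both models matching the E3-binding protein PDHX were low, with means of 2.60 and 1.27 FPKM, and since they match the same protein, reads could be split between them. The higher one (evm_TU_Chr14_139) measured 0.899, 0.935 and 7.28 FPKM in the controls, 2.32, 3.02 and 2.16 at high temperature, 3.03, 3.84 and 4.87 under low oxygen, and 1.75, 0.758 and 0.298 in the combined group. Combined and low oxygen libraries did not overlap (log2 -1.40, SE 0.54, adjusted p = 0.357). The other model was listed at 0 in combined 3, where 3 fragments would equal 0.384 FPKM.

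The cycle opens with citrate synthase, which joins acetyl-CoA to oxaloacetate. Citrate synthase (CS, evm_TU_Chr20_576) measured 15.3, 23.8 and 41.6 FPKM in the controls, 19.3, 15.5 and 33.3 at high temperature, 27.5, 12.1 and 24.6 under low oxygen, and 16.8, 38.8 and 16.7 in the combined group. All groups covered much the same range, and group means ran from 21.4 to 26.9 FPKM. The methyltransferase CSKMT, which modifies citrate synthase, entered through its name. It measured 3.74, 2.48 and 0.779 FPKM in the controls, 1.40, 0.889 and 2.25 at high temperature, 0.399, 1.35 and 2.18 under low oxygen, and 1.58, 0.959 and 1.88 in the combined group, with overlap throughout.

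Isocitrate dehydrogenases differ in cofactor and compartment. Mitochondrial NADP-dependent IDH2 (evm_TU_Chr10_409, chromosome 10, 14001778 to 14021540, 10 exons) was the second most abundant model. It measured 34.2, 62.9 and 72.0 FPKM in the controls, 79.6, 65.5 and 60.3 at high temperature, 38.6, 49.4 and 72.0 under low oxygen, and 78.4, 88.2 and 125 in the combined group. Every combined library was above every control and low oxygen library (log2 0.82 against control, SE 0.39, adjusted p = 0.379; log2 0.87 against low oxygen, SE 0.39, adjusted p = 0.395). The cytosolic NADP enzyme IDH1 (evm_TU_Chr1_283, chromosome 1, 10151534 to 10174542, 11 exons) measured 4.54, 5.03 and 7.66 FPKM in the controls, 18.2, 13.7 and 10.2 at high temperature, 6.13, 3.97 and 8.94 under low oxygen, and 7.42, 4.79 and 4.84 in the combined group.

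All 3 high temperature libraries exceeded the other 9 libraries for IDH1. The difference was log2 1.15 against control (95% interval 0.32 to 1.98, adjusted p = 0.524), and the combined group was lower than high temperature by about as much (log2 -1.16, 95% interval -1.99 to -0.32, adjusted p = 0.545). The interaction for IDH1 was log2 -1.25 (SE 0.54, adjusted p = 0.758). Of the NAD-dependent enzyme of the cycle proper, the gamma subunit IDH3G (evm_TU_Chr5_550) measured 8.19, 7.36 and 9.55 FPKM in the controls, 9.15, 8.45 and 9.08 at high temperature, 8.69, 8.74 and 7.50 under low oxygen, and 6.31, 9.06 and 5.23 in the combined group. Its highest library was 1.83-fold its lowest, the smallest ratio among the models tested with a fragment in every library. IDH3B ranged from 1.72 to 4.66 FPKM. The alpha subunit, outside the rule by its spelling, measured 11.5 to 15.2 FPKM in the controls and 9.83 to 11.02 at high temperature (log2 -0.32, SE 0.34, adjusted p = 0.946).

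The oxoglutarate dehydrogenase complex, which makes succinyl-CoA, was led by its E1 subunit OGDH (evm_TU_Chr22_28, 21 exons). OGDH measured 41.8, 53.0 and 63.6 FPKM in the controls, 57.2, 32.9 and 27.6 at high temperature, 49.7, 45.0 and 29.7 under low oxygen, and 38.1, 40.1 and 47.6 in the combined group, with overlap throughout. The E2 succinyltransferase DLST (evm_TU_Chr2_7) was tight in the control, at 21.5 to 23.3 FPKM, and lay below that range in all 3 high temperature libraries (17.2 to 18.3) and all 3 low oxygen libraries (13.4 to 17.5). These differences were log2 -0.35 (SE 0.36, adjusted p = 0.946) and -0.51 (SE 0.36, adjusted p = 0.847), and the combined libraries spread from 10.6 to 27.5 FPKM. DHTKD1, the related E1 of 2-oxoadipate dehydrogenase in lysine breakdown, ranged from 0.671 to 3.92 FPKM.

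Succinate-CoA ligase splits succinyl-CoA and yields ATP or GTP according to its beta subunit. The shared alpha subunit SUCLG1 (evm_TU_Chr17_379, chromosome 17, 12442931 to 12448913, 8 exons) measured 81.1, 38.2 and 59.9 FPKM in the controls, 45.4, 53.4 and 14.9 at high temperature, 25.2, 30.7 and 22.6 under low oxygen, and 32.1, 30.7 and 126 in the combined group. All low oxygen libraries lay below all controls (log2 -1.11, SE 0.59, adjusted p = 0.811), and a single combined library held that group's mean up. The ADP-forming beta subunit SUCLA2 measured 16.4 to 25.3 FPKM in the controls, 10.1 to 14.0 at high temperature and 10.9 to 13.2 under low oxygen, so neither single treatment overlapped with control (log2 -0.63, adjusted p = 0.813, and -0.69, adjusted p = 0.792; SE 0.34 each). The GDP-forming SUCLG2 measured 9.87 to 18.4 FPKM in the controls and 3.42 to 9.11 in the combined group (log2 -0.81, SE 0.41, adjusted p = 0.411).

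Succinate dehydrogenase is both a cycle enzyme and complex II of the respiratory chain. Its membrane anchor SDHD (evm_TU_Chr6_348) measured 31.2, 51.5 and 30.6 FPKM in the controls, 52.2, 67.7 and 31.7 at high temperature, 24.2, 34.4 and 24.4 under low oxygen, and 71.1, 31.2 and 63.9 in the combined group. The iron-sulphur subunit SDHB (evm_TU_Chr12_463) measured 23.9, 19.9 and 22.4 FPKM in the controls, 13.4, 27.1 and 11.7 at high temperature, 14.1, 15.9 and 8.89 under low oxygen, and 18.0, 20.9 and 50.7 in the combined group. SDHB was below every control in all low oxygen libraries (log2 -0.76, SE 0.45, adjusted p = 0.817) and above every low oxygen library in the combined group (log2 1.03, SE 0.45, adjusted p = 0.39). The flavoprotein SDHA, which binds succinate, averaged 12.5 FPKM and the anchor SDHC 30.2 FPKM, so the 4 subunits of one complex averaged from 12.5 to 42.8 FPKM. Of the assembly factors, SDHAF4 (evm_TU_Chr16_812) was the most abundant. It measured 16.4, 18.6 and 16.6 FPKM in the controls, 26.6, 19.6 and 18.7 at high temperature, 11.9, 11.3 and 19.0 under low oxygen, and 40.9, 9.07 and 25.9 in the combined group. SDHAF2 ranged from 3.29 to 23.1 FPKM. SDHAF3 rested on 67 fragments over all libraries. It measured 2.81, 0.645 and 0.842 FPKM in the controls, 3.33, 1.65 and 2.16 at high temperature, 1.29, 1.12 and 2.02 under low oxygen, and 0, 0.296 and 1.16 in the combined group. It was listed at 0 in combined 1, where 3 fragments would equal 1.71 FPKM, so its lower values in the combined group (log2 -1.23 against high temperature, SE 0.43, adjusted p = 0.577) have little depth behind them.

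Fumarase hydrates fumarate to malate. The mitochondrial form (FH, evm_TU_Chr2_1026) measured 15.8, 7.78 and 10.6 FPKM in the controls, 14.6, 6.01 and 7.66 at high temperature, 7.63, 11.998 and 9.94 under low oxygen, and 9.88, 10.4 and 32.7 in the combined group. A model matching a bacterial class I fumarase (evm_TU_Chr12_599), an iron-sulphur enzyme in bacteria, measured 2.68, 7.88 and 6.59 FPKM in the controls, 9.97, 5.03 and 6.52 at high temperature, 7.81, 5.95 and 4.57 under low oxygen, and 1.52, 4.88 and 2.51 in the combined group. All combined libraries were below all high temperature libraries (log2 -1.09, SE 0.45, adjusted p = 0.705). Mitochondrial malate dehydrogenase (MDH2, evm_TU_Chr11_88), which closes the cycle, measured 49.4, 33.5 and 42.7 FPKM in the controls, 24.8, 55.5 and 12.957 at high temperature, 21.7, 24.0 and 27.1 under low oxygen, and 38.5, 41.6 and 58.1 in the combined group. Low oxygen stood below control for MDH2 (log2 -0.75, SE 0.46, adjusted p = 0.819), and the combined group stood above low oxygen (log2 0.88, SE 0.46, adjusted p = 0.447). The interaction was log2 1.51 (95% interval 0.11 to 2.91, adjusted p = 0.758).

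The cytosolic malate dehydrogenase (MDH1, evm_TU_Chr2_43), part of the shuttle that carries reducing equivalents into mitochondria, measured 55.8, 53.0 and 56.4 FPKM in the controls and 38.4, 60.3 and 22.2 at high temperature. It measured 28.8, 35.8 and 48.8 FPKM under low oxygen, all below control (log2 -0.56, SE 0.49, adjusted p = 0.859), and 27.8, 52.9 and 105 in the combined group. A pair of models on chromosome 7 match archaeal malate dehydrogenases and averaged 2.24 and 1.45 FPKM. The lower of them (evm_TU_Chr7_90) measured 1.65, 1.91 and 3.03 FPKM in the controls and 1.17, 0.735 and 0.482 at high temperature. It measured 1.69, 1.35 and 2.62 FPKM under low oxygen and 0.476, 2.18 and 0.0973 in the combined group. Only the high temperature group thus stood wholly below control (log2 -0.83, SE 0.43, adjusted p = 0.799). Malic enzyme (ME1, evm_TU_Chr19_358, chromosome 19, 11795114 to 11820236, 12 exons), a cytosolic source of NADPH, measured 5.15, 12.4 and 44.1 FPKM in the controls, 4.27, 5.13 and 5.41 at high temperature, 11.3, 16.6 and 8.13 under low oxygen, and 5.84, 12.4 and 2.66 in the combined group. Its high temperature libraries were close together, and the control mean was carried by control 3. ME1 gave the most negative difference of the models at high temperature (log2 -1.39, 95% interval -2.81 to 0.03, adjusted p = 0.753) and in the combined group (log2 -1.16, 95% interval -2.57 to 0.26, adjusted p = 0.459).

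**Figure D2:**
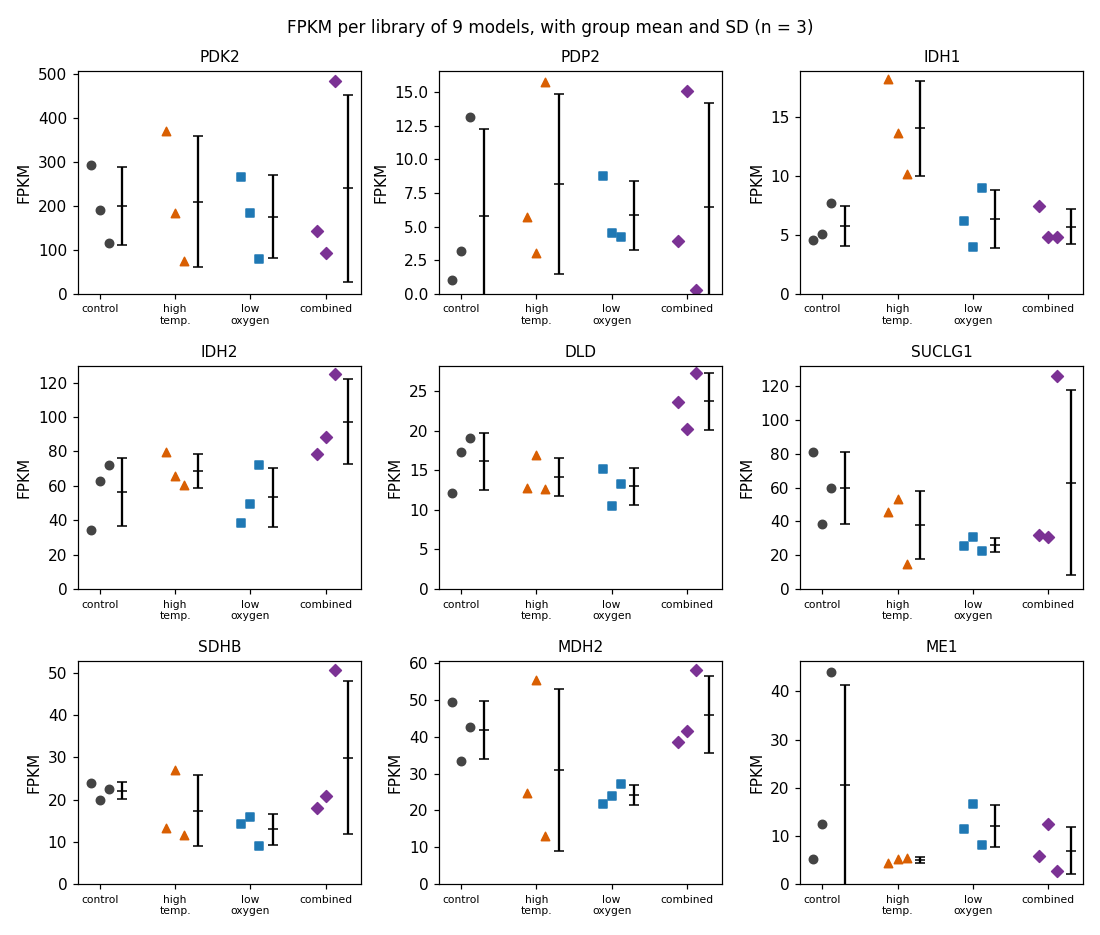
FPKM (vertical axis, from 0) of 9 models in each library, by group, with the group mean and SD (n = 3) beside the points. IDH1 is highest in the 3 high temperature libraries (10.2 to 18.2 FPKM), DLD in the 3 combined libraries (20.2 to 27.3 FPKM), and PDK2 spreads widely within every group.

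Low oxygen and control shared the temperature of 18 °C, and how far they differed in oxygen is uncertain, as stated above. Of 35 models, 27 were below 0 (77.1%, where all genes had 49.2% below and 50.8% above), with a median of log2 -0.28 against 0.01 over all genes. In 6 of them (SUCLG1, SDHB, MDH2, SUCLA2, MDH1 and DLST) all low oxygen libraries lay below all controls, which is 17.1% against a background of 8.66%, and in 0 did they lie above, against 7.58%. The models are not independent of each other, and fewer cells of a type and less RNA per cell cannot be told apart in these bulk samples. The nuclear respiratory chain genes, counted the same way, had 50 of 60 below 0 and a median of log2 -0.60. Of them, 24 lay below control without overlap. With libraries rescaled to equal totals, the summed FPKM of this list overlapped with control (3168 to 4211 against 4019 to 6803). Without control 3, 20 of 35 models were below 0 and their median was log2 -0.14. With FPKM rescaled to equal totals per library, 23 of 35 were below 0, the median was log2 -0.11 where that of all genes was 0.15, and 4 models (PDHB, SUCLG1, SDHB and MDH2) lay below all controls.

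**Figure D3:**
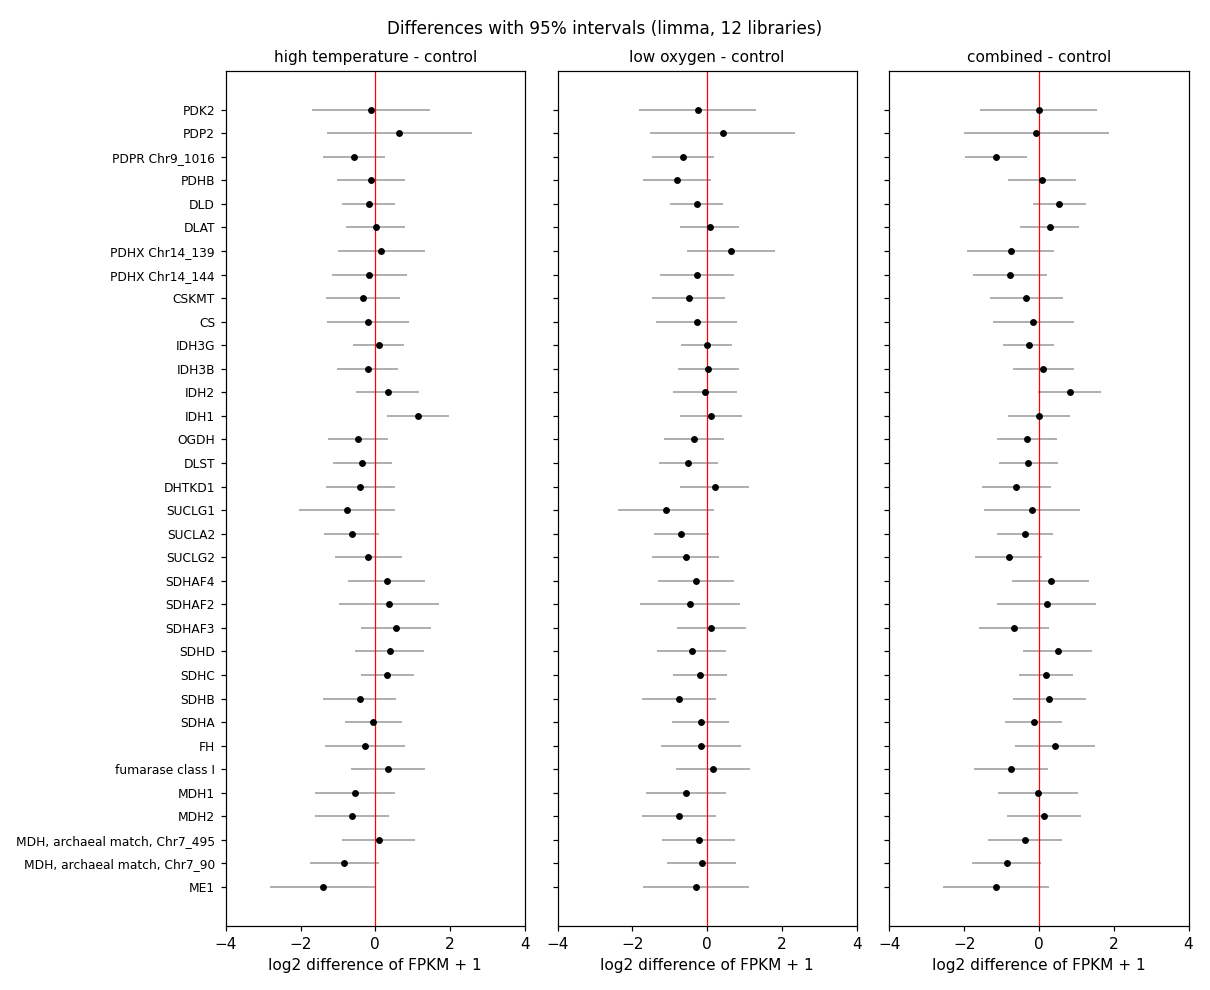
Log2 difference of FPKM plus 1 from control (horizontal axis) with its 95% interval for 34 of the 35 models tested, in the high temperature, low oxygen and combined groups. Intervals cross 0 for every model drawn in the low oxygen panel and for all but 1 in each of the other panels, the exceptions being IDH1 at high temperature and PDPR in the combined group.

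High temperature differed from control in temperature and, if the controls were at 3 mg/L, also in oxygen. The models had 22 of 35 below 0 (62.9%, where all genes had 50.4% below and 49.6% above) and a median of log2 -0.17, which turned to 0.06 without control 3. Groups did not overlap for 2 models higher in warm water, IDH1 and SDHAF4 (5.71%, background 6.87%), and for 3 lower, DLST, SUCLA2 and the archaeal-type evm_TU_Chr7_90 (8.57%, background 7.24%). The combined group against control had 23 of 35 below 0 (65.7%, where all genes had 52.8% below and 47.2% above) and a median of log2 -0.15, with 2 models without overlap above control, IDH2 and DLD (5.71%, background 6.36%), and 2 below, PDPR and SUCLG2 (5.71%, background 8.06%). All these comparisons share the control libraries.

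Warming added to low oxygen compares the combined with the low oxygen group. Here 21 of 35 models were above 0 (60%, where all genes had 48.7% above and 51.3% below), with a median of log2 0.13, and 6 models (DLD, IDH2, PDHB, SDHB, SDHC and MDH2) were higher without overlap (17.1%, background 7.71%), against 2 lower, PDHX and DHTKD1 (5.71%, background 7.86%). In the respiratory chain list 57 of 60 were above 0 with a median of log2 0.68, and 1 gene of it was called higher. These values are on the deposited scale. At equal totals 1 of 35 models was above 0 and 34 were below, with a median of log2 -0.78, where that of all genes was -0.70. The summed FPKM of the respiratory chain list did not separate the groups on that scale: 3168 to 4211 for low oxygen, 3317.5 to 3753.5 for combined. Directions of single genes of the list are not given on that scale. Low oxygen added to warm water, the combined against the high temperature group, had 19 of 35 above 0 (54.3%, where all genes had 48.9% above and 51.1% below) and a median of log2 0.04 that changed sign without either of high temperature 2 and 3 or either of combined 1 and 2. In it DLD was higher without overlap (2.86%, background 4.97%) and 5 models were lower: SDHAF3, IDH1, the class I fumarase, PDHX and SUCLG2 (14.3%, background 4.53%). Of these, SDHAF3 was listed at 0 in combined 1. There 3 fragments would equal 1.71 FPKM, more than in high temperature 2 (1.65 FPKM), so its separation is uncertain. At equal totals 0 of 35 models were above 0 in this comparison. The interaction was above 0 in 25 of 35 models (71.4%, where all genes had 50.2% above and 49.8% below) with a median of log2 0.31. Without control 3 it was above 0 in 18 models with a median of 0.02, and at equal totals in 4 models with a median of -0.57, where that of all genes was -0.74. Its most positive values were those of SUCLG1 (log2 1.69, SE 0.84, adjusted p = 0.766) and MDH2, and the most negative those of PDHX (log2 -1.56, SE 0.76, adjusted p = 0.766) and SDHAF3 (log2 -1.35, SE 0.61, adjusted p = 0.761).

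**Figure D4:**
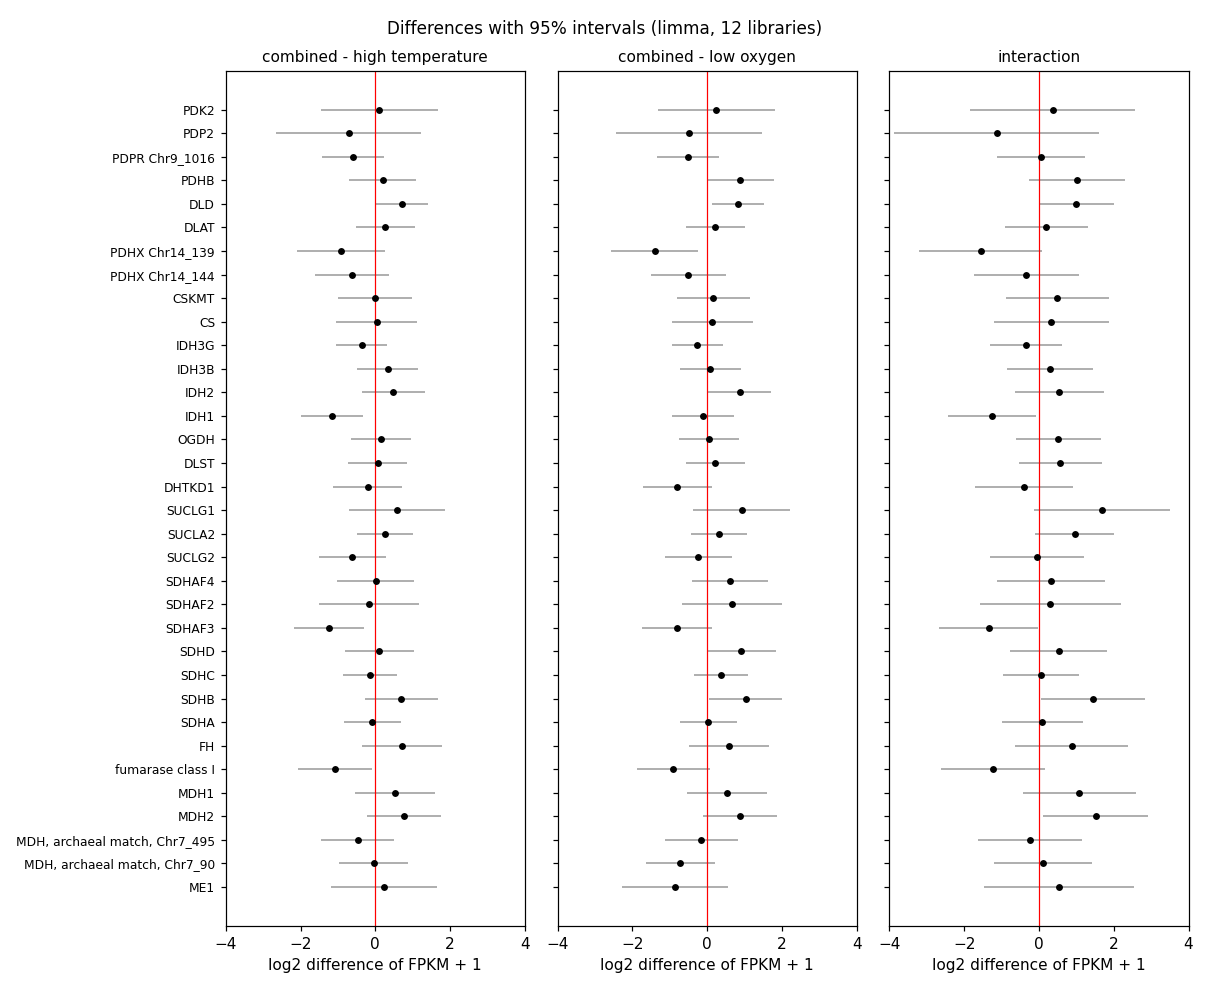
Log2 difference of FPKM plus 1 (horizontal axis) with its 95% interval for 34 of the 35 models, for combined minus high temperature, combined minus low oxygen, and the interaction. Intervals lie off 0 for 4 models in each panel, and IDH1 lies to the left in the first panel (-1.16).

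Directions depended on scaling most where the combined group was involved. With values rescaled to equal totals, the median of all genes moved to log2 -0.61 against control, -0.61 against high temperature and -0.70 against low oxygen. On that scale 0 of 35 models were above 0 against control, including IDH2 and DLD, and the models' medians were -0.89, -0.77 and -0.78. The models' medians thus lay below those of all genes on that scale in each of these comparisons. On the deposited scale they lay slightly above them against high temperature and low oxygen. Rescaling divides a whole library by 1 number, so apart from the pseudocount and the filter it moves all genes alike. The pseudocount of 1 damps the shift more in low genes, and the models were higher (median 11.6 FPKM against 4.12 over all genes tested). This change of relative position is therefore not a result about the models.

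The summed level shows the same libraries from another side. The 36 models summed to 868, 792 and 907 FPKM in the controls, 989, 852 and 547 at high temperature, 714, 649 and 597 under low oxygen, and 763, 717 and 1368 in the combined group. On this deposited scale all low oxygen libraries were below the controls, also without PDK2 (448 to 519 against 576 to 791 FPKM), and combined 3 gave the highest sum. At equal totals neither held: the sums were 849 to 1065 in the controls, 676 to 952 under low oxygen, and only 425 to 643 in the combined group, so low oxygen overlapped with control and combined 3 was below every control. On the deposited scale combined 3 held the highest value of 11 of the 35 tested models and the lowest value of 8, and control 3 held the highest of another 11. As deposited, the respiratory chain list summed to 4001 to 5796 FPKM in the controls and 2540 to 5161 at high temperature. Low oxygen libraries gave 2377 to 3499 FPKM and combined libraries 4080 to 7980, a separation that was absent at equal totals.

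**Figure D5:**
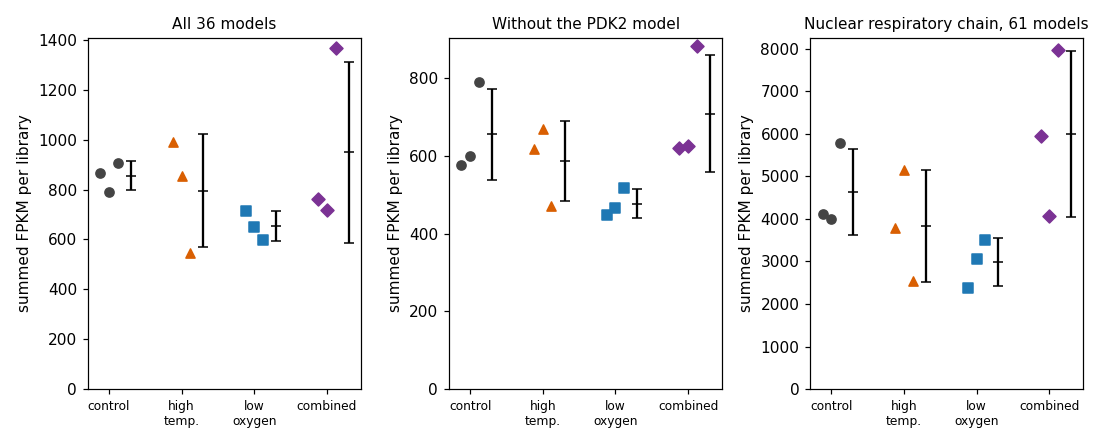
Summed FPKM per library (vertical axes from 0) of all 36 models, of the models without PDK2, and of 61 nuclear respiratory chain models, by group, with mean and SD (n = 3). On this deposited scale the low oxygen libraries lie below the controls in all 3 panels and combined 3 is the highest library in each, which does not hold at equal totals.

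Linked genes were read from a list of enzymes and carriers around the cycle, with 39 of 41 tested. None was called in any comparison (limma, 0 higher and 0 lower each time, and 0 by limma voom). At an unadjusted p under 0.05, 0 were higher and 5 lower at high temperature (all genes 2.38% and 4.2%), 0 and 5 under low oxygen (2.24% and 4.06%), and 0 and 8 in the combined group (6.65% and 7.1%), each against control. The combined group had 3 higher and 0 lower against high temperature (3.87% and 2.78%) and 1 and 2 against low oxygen (6.3% and 6.06%), and the interaction 4 and 1 (4.12% and 2.44%). ATP-citrate synthase (evm_TU_Chr20_7), which turns exported citrate into cytosolic acetyl-CoA, measured 45.8, 60.6 and 153.5 FPKM in the controls and 12.2, 12.3 and 9.88 at high temperature. It measured 17.4, 12.7 and 15.0 FPKM under low oxygen and 11.1, 26.7 and 28.9 in the combined group. Every treated library lay below every control, with log2 -2.62 (SE 0.48, adjusted p = 0.0788), -2.26 (SE 0.48, adjusted p = 0.281) and -1.83 (SE 0.48, adjusted p = 0.128). Over the alternatives its adjusted p ran from 0.00611 to 0.303 at high temperature (2 of 22 calls), from 0.0136 to 0.737 under low oxygen (1 of 22) and from 0.0488 to 0.635 in the combined group (1 of 22). The mitochondrial citrate carrier (tricarboxylate transport protein B) measured 2.36, 3.88 and 23.7 FPKM in the controls and 1.07 to 1.62 under low oxygen (log2 -1.68, SE 0.70, adjusted p = 0.76).

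Pyruvate kinase (PKM), which makes pyruvate, measured 11.2, 12.2 and 14.1 FPKM in the controls, 7.20, 6.47 and 8.27 at high temperature, 10.7, 10.8 and 14.8 under low oxygen, and 13.6, 21.6 and 18.2 in the combined group. The high temperature libraries were the lowest of all, and the combined group exceeded them (log2 1.16, SE 0.32, adjusted p = 0.351). Cytosolic phosphoenolpyruvate carboxykinase, which draws oxaloacetate off for gluconeogenesis, measured 23.3 to 59.3 FPKM in the controls and 66.2 to 121.9 under low oxygen, without overlap (log2 1.20, SE 0.82, adjusted p = 0.841). In the combined group it spread from 14.8 in combined 3 to 246 in combined 1. Glutamate dehydrogenase, which feeds 2-oxoglutarate into the cycle, ranged from 28.9 to 100.3 FPKM. The list also caught peroxisomal carnitine octanoyltransferase, a fatty acid enzyme that entered by its name alone. Its model evm_TU_Chr20_593 measured 34.7, 173 and 288 FPKM in the controls and 0 to 1.40 at high temperature (log2 -6.40, SE 1.05, adjusted p = 0.0600), with 9 of 22 alternatives calling it. The same model measured 7.63, 4.69 and 6.09 FPKM under low oxygen and 1.34, 29.0 and 0 in the combined group. Every treated library thus lay below every control. Against control, 1 of 22 alternatives called it under low oxygen and 4 of 22 in the combined group.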

How the data were processed

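Intestine RNA of 12 animals was sequenced on an Illumina HiSeq after mRNA purification and random priming, per the labels' protocols; no strand, aligner, counter or build is given in the sources used here. The authors deposited FPKM per gene model. All values came out as whole fragments (100.0% within 1e-06) once divided by 1 fragment's worth, and each library's effective size matched a median-of-ratios size factor. Depth was 8.147 to 10.855 (in units of 1e6) fragments, so low models carry counting error. Genes at 1 FPKM or more in at least 3 libraries (15615) were tested on log2(FPKM + 1), pseudocount 1, with limma 3.58.1 (R 4.3.3, mean-variance trend) over all groups, Benjamini-Hochberg adjusted, with 6 contrasts. Fold changes on this scale understate those of low genes. Floors of 3 fragments cover counting error only. Alternatives were pseudocount, filter, voom, equal FPKM totals per library, library weights, replicate block, groups of the contrast alone and left-out libraries. Values in every library are given for the most abundant model of each step and for the 2 largest changes each way in each comparison, and for some others, except for the model left out. The members and gene lists were chosen with earlier results of these data known. The values of 1 model are not reported here, although it stays in the counts and sums.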

Additional observations from a re-analysis of the deposited data

How the results depend on the processing

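No enzyme model was called in any of the 6 comparisons under the 22 alternatives (21 for the interaction). The smallest adjusted p (limma) was 0.0612 at high temperature and 0.141 under low oxygen, both with library weights, and 0.0686 in the combined group with equal totals. For the 24 models picked by level or size of change, differences moved by less than the spread within groups in 2968 of 3111 recomputed values. Many of these values could not move. Another filter, the replicate block or leaving out a library of a group outside the comparison keeps the difference as it was. The count therefore overstates how stable the differences were. Leaving out each library in turn, the models' median log2 difference from control ran from -0.32 to 0.06 at high temperature, -0.44 to -0.14 under low oxygen, then -0.28 to -0.06 in the combined group. Calls over all genes varied more: 7 higher and 4 lower at high temperature became up to 71 and 134 with library weights, low oxygen's 0 and 1 became up to 46 and 139 with the same weights, and the combined group's 93 and 30 ranged from 26 to 158 and from 0 to 70. Over all genes tested, libraries with the same number did not pair (correlations -0.17 to 0.178, with 4 of 12 libraries correlating best with their own number). Single models can still follow the number, as PDK2 did in the controls and both single treatments. With the replicate block 0 models were called, and over all genes 10 were higher and 7 lower at high temperature, and 72 and 17 in the combined group. Models under 3 FPKM, among them SDHAF3 and PDHX, are limited by depth.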
